A study of Mus musculus with 31 samples.

Results

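The clustered histone genes encode the core histones H2A, H2B, H3 and H4 and the linker histone H1. They were taken as every gene whose name begins with Hist1h, Hist2h, Hist3h or Hist4h. This gave 68 of the 24062 gene names in the tables from sorted cells, and the same 68 of the 24322 names in the culture table. By type there were 6 H1, 18 H2A, 19 H2B, 12 H3 and 13 H4 genes. RefSeq (assembly GRCm38.p6, which corresponds to mm10) places 54 Hist1 genes on chromosome 13 between 21715711 and 23934913, 10 Hist2 genes on chromosome 3 between 96219885 and 96270192, 3 Hist3 genes on chromosome 11 between 58948911 and 58955192, and Hist4h4 on chromosome 6 at 136803993 to 136804431.

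Pairs of H2A with H2B and of H3 with H4 form the protein core around which DNA is wrapped, and H1 binds the DNA that enters and leaves it. Most clustered histone genes are short, lack introns and are transcribed when DNA is copied in S phase. Their messenger RNA ends in a stem loop bound by the protein Slbp instead of a poly(A) tail, but many of these genes also make some polyadenylated RNA, above all in cells that have left the cell cycle. The mRNA kit named in the labels captures RNA through its poly(A) tail, so the levels below are those of transcripts with such a tail. The variants H2A.Z, H2A.X, H3.3 and H1.0 are encoded outside the clusters by genes that are not tied to S phase.

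RNA was sequenced in 21 libraries, 3 in each of 7 groups. Of these, 15 came from C57BL/6 Nestin-EGFP mice, in which Nestin regulatory sequence drives a green fluorescent protein. EGFP-positive cells, neural stem cells and their progeny, were sorted from the hippocampal dentate gyrus. The mice had received water (Control P10, Control 8w) or midazolam, a benzodiazepine sedative, at 10 mg/kg (MDZ P10, MDZ 8w, RUN MDZ 8w) on postnatal days 7, 8 and 9. Cells were taken at postnatal day 10 or at 8 weeks, and RUN MDZ 8w mice had a running wheel. The 31 listed samples hold no running group without midazolam. At P10 each library held 50000 cells of 1 mouse. At 8 weeks it held some 30000 cells, pooled over 3 to 5 mice. The remaining 6 libraries came from wild-type ICR neural stem cells of the cortex at embryonic day 11, kept in medium with bFGF and EGF for more than 20 passages. All carried a lentivirus for the transactivator M2rtTA alone (Control culture) or together with a lentivirus for Flag-tagged Egr1, a zinc finger transcription factor (Egr1 culture). Whether these 6 were grown as separate cultures is not stated, so p-values in culture describe only how far these particular samples varied, possibly for technical reasons.

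Levels are in FPKM at P10 and in TPM at 8 weeks and in culture, units that were read from the values because the labels name none. Both units are divided by gene length, and levels are compared only within a table. Changes are log2 fold changes ± SE from limma on log2(value + 1), which makes the change of genes near 0 look smaller than it is, and a gene passed at a Benjamini-Hochberg adjusted p below 0.05 over all genes tested. A gene was tested if its mean over the fitted libraries reached 1, which kept 21 of the 68 at P10, 53 at 8 weeks and 58 in culture. Sequencing depth is not given, since the files hold no counts. The number of genes above 0 per library was 17623 to 18470 at P10, 15537 to 15998 in culture, 11163 to 11397 in Control 8w and 15382 to 16709 in the other 6 libraries of that age. Control 8w replicate 1 stood apart: it shared 78.4% and 77.8% of detected genes with replicates 2 and 3, which shared 97.4% with each other. Replicates 2 and 3 were closer to each other than any further 8-week replicates (Spearman correlation 0.992) and were averaged and counted as 1 sample, so n = 2 for Control 8w. Stem cell markers were present in every library (Sox2 at 87.4 to 106 FPKM at P10, at 197 to 401 TPM at 8 weeks and at 116 to 159 TPM in culture), and so were markers of other cell types in the sorted cells, some of them given below beside the results. In these bulk samples fewer cells of a type and less RNA per cell cannot be told apart.

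A few genes carried most of the histone signal. At P10 the mean over the 6 libraries was 24.7 FPKM for Hist3h2ba (an H2B gene), 22.5 FPKM for Hist3h2a (H2A), 18.5 FPKM for Hist1h2bc (H2B) and 7.13 FPKM for Hist1h1c (H1). The first 3 made up 55.5% of the summed level of the 68 genes, and the median gene stood at 0.47 FPKM. At 8 weeks the same 4 genes led, with means of 456 TPM for Hist3h2a, 311 TPM for Hist3h2ba, 212 TPM for Hist1h2bc and 97.8 TPM for Hist1h1c, against a median gene of 10.1 TPM. The leading H3 and H4 genes were far lower: Hist2h3b averaged 13.5 TPM and Hist1h4h 31.5 TPM.

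Cultured cells had another order. Hist1h1c came first at 121 TPM, followed by Hist1h2bc at 85.0 TPM, Hist3h2a at 40.5 TPM, Hist2h2aa1 at 39.1 TPM and Hist1h2ap at 31.4 TPM, while Hist3h2ba averaged 2.24 TPM. The highest H3 gene was Hist2h3c2 at 8.41 TPM and the highest H4 gene Hist1h4i at 14.9 TPM. Of the 68 genes, 27 were above 0 in every library. Another 8 were listed at 0 in all 15 sorted libraries and above 0 in culture, among them Hist2h2aa1, Hist1h2ap and Hist2h3c2. Several of these genes have near-identical copies, between which shared reads cannot be assigned, and how the authors divided such reads is not given in the sources used here. Hist1h1t, a testis H1 gene, was listed at 0 in all culture libraries and stood below 0.07 FPKM at P10.

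**Figure D1:**
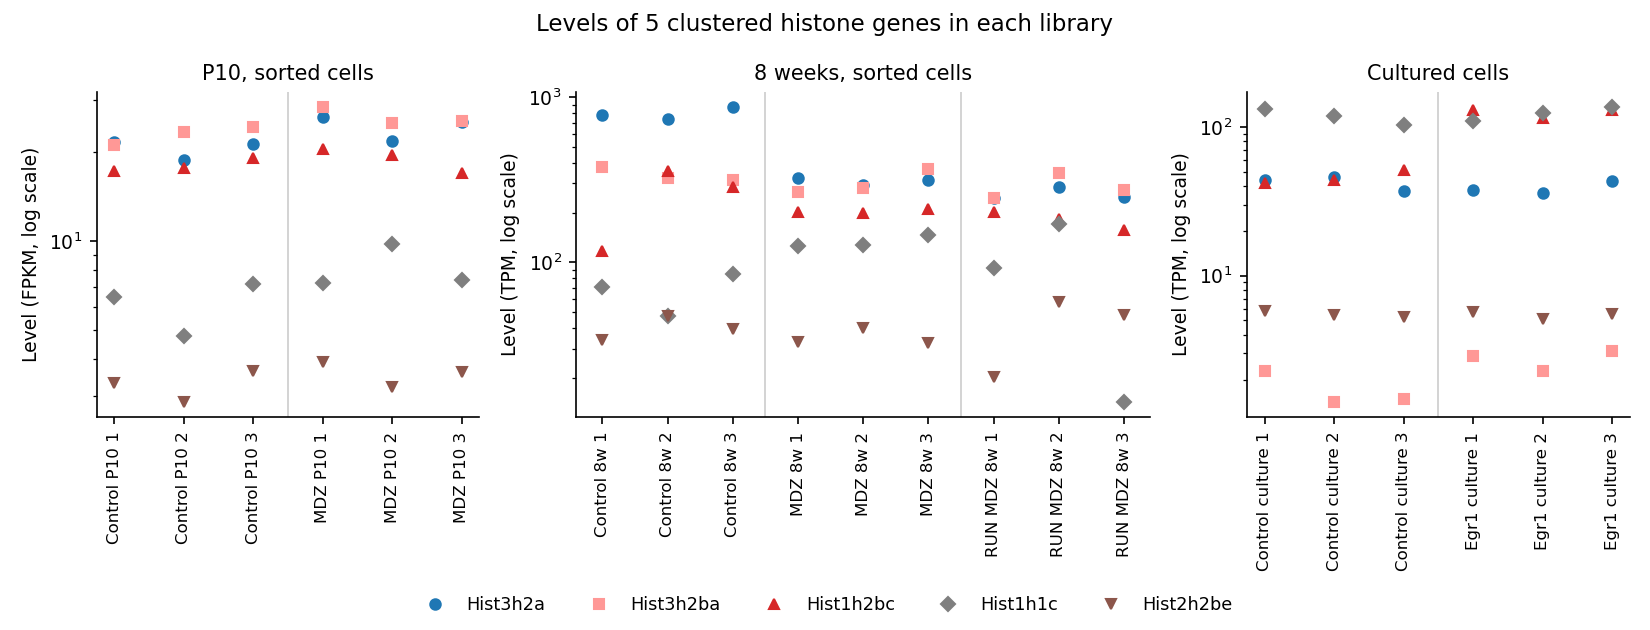
Level of 5 clustered histone genes in each of the 21 libraries (FPKM at P10, TPM at 8 weeks and in culture, log axes), 1 point per library, with grey lines between groups. Hist3h2a lay at 741 to 874 TPM in Control 8w and at 246 to 323 TPM in the other 8-week libraries, and Hist1h2bc at 42.2 to 51.5 TPM in Control culture and at 114 to 129 TPM in Egr1 culture.

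The culture comparison asked what added Egr1 changed in proliferating neural stem cells. Egr1 itself was at 361, 285 and 344 TPM in Control culture and at 1769, 1390 and 1291 TPM in Egr1 culture, which matches the labels. Almost the whole H2B type was higher in Egr1 culture, while H1 and H2A genes showed no shift of that kind. The summed level of the 19 H2B genes was 105, 102 and 110 TPM in Control culture and 298, 247 and 322 TPM in Egr1 culture, a 2.73-fold higher mean. The H2A sum was 218, 192 and 189 TPM against 174, 208 and 217 TPM, with overlapping groups. H2B genes thus made up 19.3% to 23.2% of the summed histone level in Control culture and 36.4% to 42.4% in Egr1 culture.

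**Figure D2:**
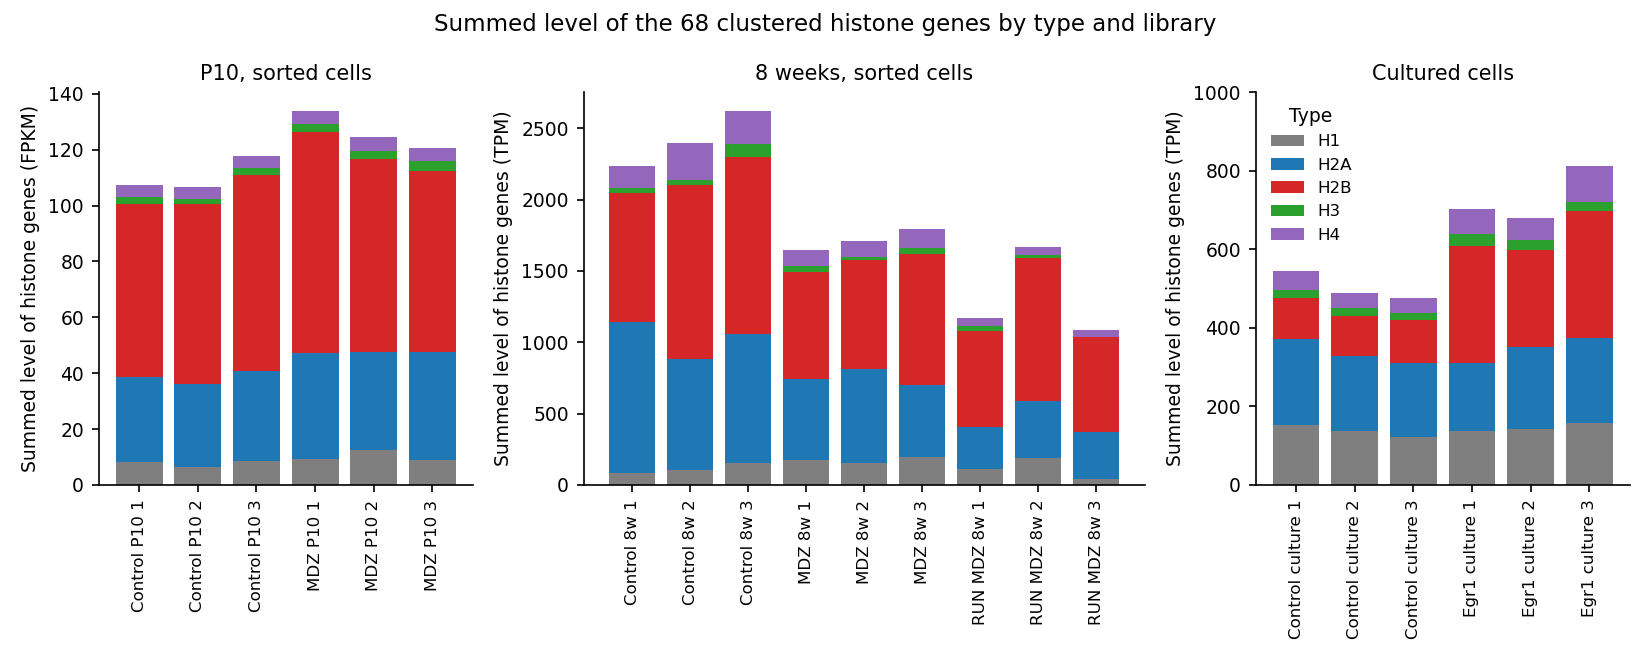
Summed level of the 68 clustered histone genes in each library, stacked by histone type (FPKM at P10, TPM at 8 weeks and in culture). In culture the H2B segment rises from 102 to 110 TPM in Control culture to 247 to 322 TPM in Egr1 culture, and at 8 weeks the whole bar is tallest in Control 8w.

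Of the 58 histone genes tested in culture, 24 rose, 1 fell and 33 did not pass. Over all 12402 genes tested, 15.2% rose and 29% fell. The H2B genes accounted for 18 of the 24, and in each of these 18 every Egr1 culture library lay above every Control culture library, which held for 18.4% of all genes tested in that direction and 37.1% in the other. The median log2 change was 1.28 over the 19 H2B genes, 0.00 over 16 H2A genes, 0.13 over 4 H1 genes, 0.35 over 8 H3 genes and 0.45 over 11 H4 genes, beside -0.10 over all genes tested. With median-of-ratios scaling, which moved the median of all genes to 0.01 and the calls over all genes to 2776 higher and 2721 lower, the H2B median was 1.38 with 18 genes higher, and 11 of 16 H2A genes were positive where 8 were without scaling.

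Hist1h2bc, the H2B gene with the highest level in culture, was at 42.2, 43.9 and 51.5 TPM in Control culture and at 129, 114 and 129 TPM in Egr1 culture. The groups were far apart (log2 1.42 ± 0.088, limma adjusted p = 5.5e-06). Without it the H2B sum was still 62.9, 57.9 and 58.9 TPM against 169, 133 and 193 TPM, so the difference was not confined to this entry. Reads shared by near-identical H2B genes cannot be assigned, and how they were divided is not given. The H2B entries, here and below, are therefore not independent of each other. The part of shared reads in the number of H2B genes that rose was not tested. Hist1h2be, another replication-dependent H2B gene, measured 9.72, 8.44 and 8.83 TPM against 22.4, 17.9 and 26.3 TPM (log2 1.20 ± 0.14, limma adjusted p = 0.00017). Hist1h2bl had the largest change of all histone genes, from 5.19, 6.93 and 2.24 TPM to 18.5, 16.2 and 20.6 TPM (log2 1.84 ± 0.28, limma adjusted p = 0.00094).

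The other H2B genes that passed had lower means in Control culture than Hist1h2bc and Hist1h2be, with log2 changes from 0.47 to 1.66. Hist1h2bb (1.65, 1.70 and 0.89 TPM against 8.64, 4.16 and 7.60 TPM), Hist1h2bk and Hist1h2ba had log2 changes of 1.66, 1.56 and 1.54. Hist1h2bm, Hist1h2bp, Hist1h2bf, Hist1h2bg, Hist1h2bh, Hist2h2bb, Hist1h2bj, Hist1h2bn and Hist1h2br lay between 1.16 and 1.36. Of these, Hist1h2bf did not pass without Control culture replicate 1 (limma adjusted p = 0.053) and Hist1h2bn did not pass with library quality weights (limma adjusted p = 0.071). Hist3h2bb-ps, annotated by RefSeq as a transcribed pseudogene, and Hist1h2bq were at 0.98 and 0.78. Hist3h2ba, the leading H2B gene of the sorted cells, had the smallest rise, from 2.28, 1.41 and 1.48 TPM to 2.87, 2.30 and 3.10 TPM (log2 0.47 ± 0.17, limma adjusted p = 0.045), and did not pass without Control culture replicates 2 or 3 or Egr1 culture replicates 1 or 3.

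Like Hist1h2bc, Hist1h2be, Hist1h2bp, Hist1h2bq and Hist1h2br, which rose, Hist2h2be has a long annotated span (2667 bases). Hist2h2be was the single H2B gene that did not pass. It was at 5.80, 5.45 and 5.30 TPM in Control culture and at 5.72, 5.10 and 5.48 TPM in Egr1 culture (log2 -0.02 ± 0.1, limma adjusted p = 0.90). The groups overlapped. Its change was negative with the values as deposited and positive after median-of-ratios scaling or quantile normalization, and without Control culture replicate 1 or Egr1 culture replicate 2. Across the 14 alternative settings, 11 to 18 H2B genes passed as higher and 0 as lower, the lowest count with the stricter filter, under which 12 H2B genes were tested.

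**Figure D3:**
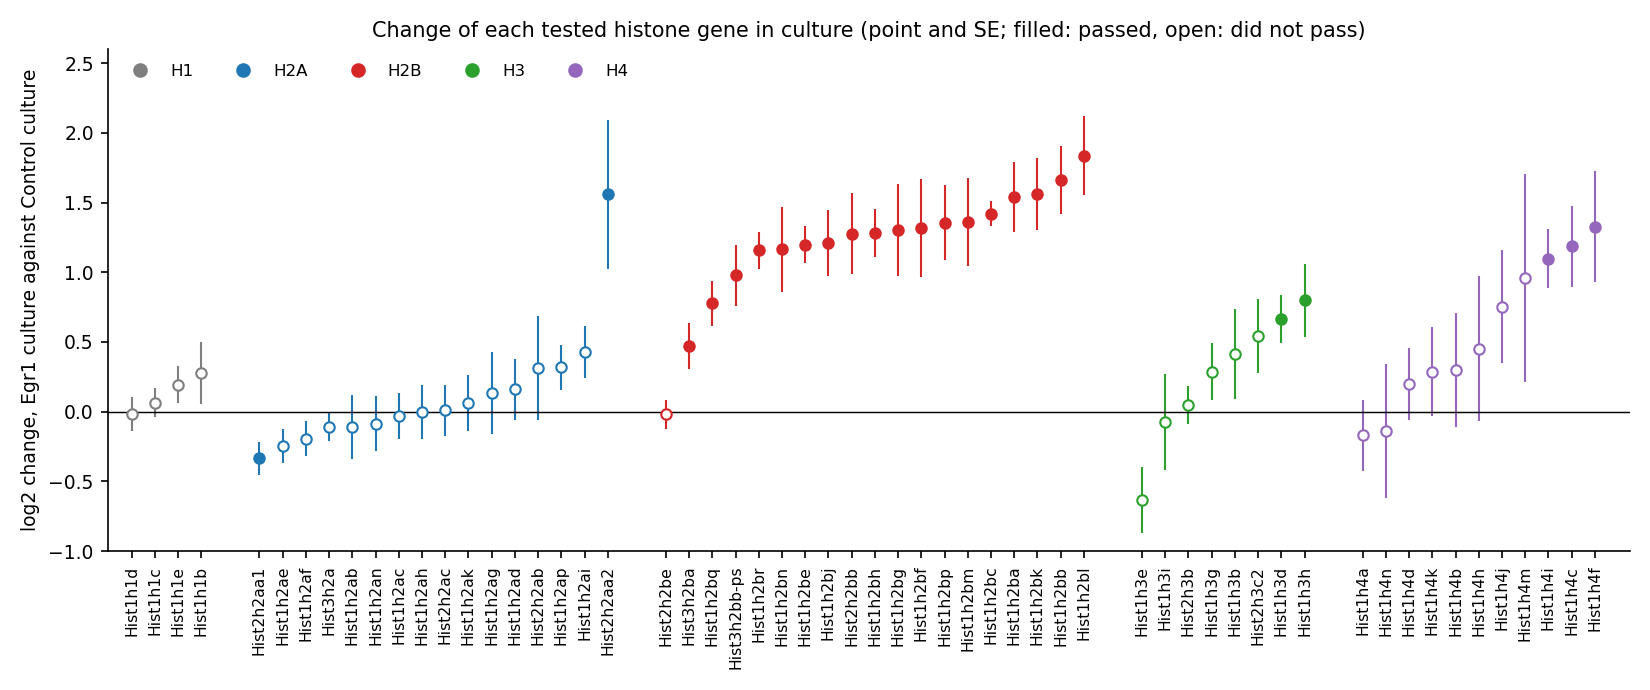
log2 change ± SE of each of the 58 tested histone genes in Egr1 culture against Control culture (3 libraries each), ordered within type, with filled points for genes that passed. The H2B genes lie between 0.47 and 1.84 except Hist2h2be at -0.02, while 14 of 16 H2A genes lie between -0.25 and 0.43.

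H2A genes moved little. Hist3h2a was at 43.9, 45.9 and 36.8 TPM in Control culture and at 37.8, 36.0 and 42.9 TPM in Egr1 culture (log2 -0.11 ± 0.10), and Hist1h2ap at 29.1, 25.4 and 28.2 TPM against 26.4, 44.5 and 35.0 TPM (log2 0.32 ± 0.16). Neither passed, and the groups overlapped in both. The 2 H2A genes that passed are neighbouring copies: Hist2h2aa1 fell (48.0, 43.1 and 39.8 TPM against 34.8, 29.0 and 40.0 TPM, log2 -0.33 ± 0.12, limma adjusted p = 0.048) and Hist2h2aa2 rose (log2 1.56 ± 0.53, limma adjusted p = 0.041). In Control culture Hist2h2aa2 was at 3.56 TPM in replicate 3 and below 0.001 TPM in the other two, so its rise rests on those libraries, and the division of shared reads between the copies was not tested. Summed, the 2 genes were at 48.0, 43.1 and 43.4 TPM against 38.0, 32.1 and 45.9 TPM, which overlap. Each passed in 1 of the 6 fits that left out a library.

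Among H4 genes, Hist1h4i, the H4 gene with the highest level in culture, was at 8.86, 10.3 and 7.65 TPM in Control culture and at 24.8, 13.7 and 24.1 TPM in Egr1 culture (log2 1.10 ± 0.21, limma adjusted p = 0.0030). Hist1h4c (log2 1.19) and Hist1h4f (log2 1.33) also rose, from below 2.3 TPM in every Control culture library. Hist1h4f did not pass without Control culture replicates 2 or 3 or Egr1 culture replicates 2 or 3. Of the H3 genes Hist1h3d and Hist1h3h rose (log2 0.66 and 0.80) from levels near 1 TPM, Hist1h3h not without Control culture replicates 1 or 3 or Egr1 culture replicates 1 or 2. Hist1h3e had the lowest change of the type (log2 -0.64, limma adjusted p = 0.056). No H1 gene passed by limma, adjusted or at an unadjusted p below 0.05: Hist1h1c was at 131, 119 and 104 TPM against 110, 124 and 136 TPM.

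H2A and H2B genes often lie head to head, sharing the short stretch between their starts. Among the 68 genes there were 13 neighbouring H2A and H2B genes less than 300 bases apart, with 163 to 280 bases between them in RefSeq. In 11 of these both genes were tested in culture. The H2B gene rose in 10 of the 11 and its H2A neighbour passed in 0. At an unadjusted p below 0.05, 1 of these H2A genes (Hist1h2ai, log2 0.43) was higher. The median log2 change was 1.30 for the H2B genes (from -0.02 to 1.84) and 0.01 for the H2A genes (from -0.25 to 0.43). Hist1h2bc, 239 bases from Hist1h2ac, is an example: Hist1h2ac was at 5.83, 6.85 and 8.99 TPM in Control culture and at 8.30, 5.88 and 6.87 TPM in Egr1 culture (log2 -0.03 ± 0.17).

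**Figure D4:**
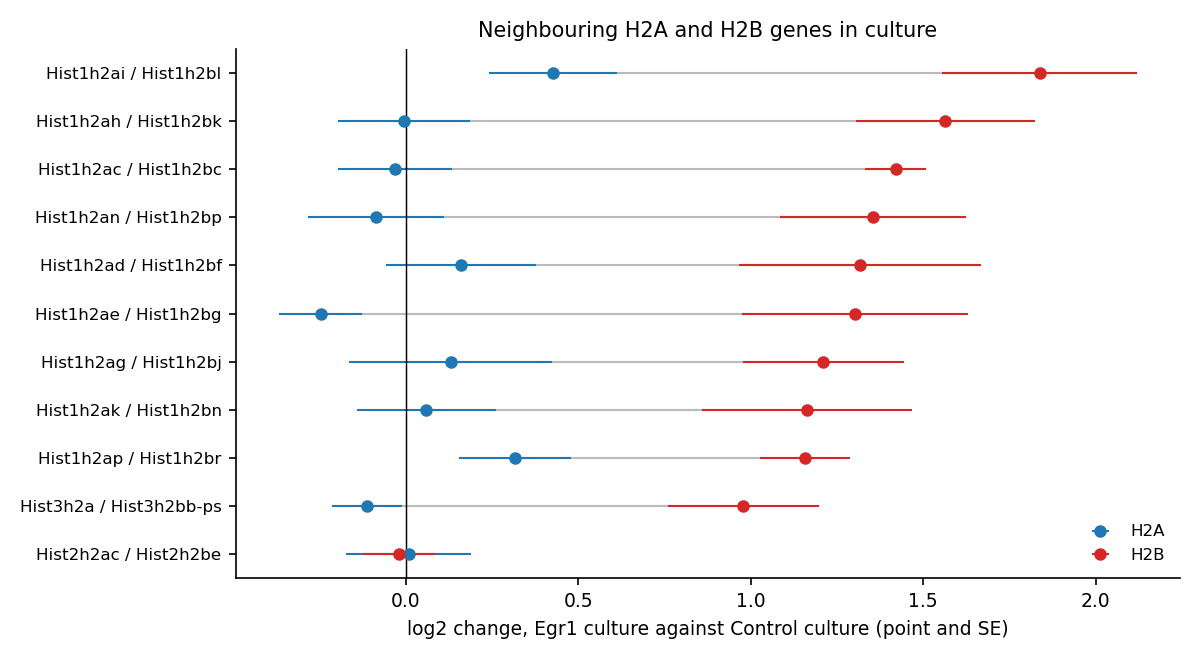
log2 change ± SE in Egr1 culture against Control culture of the 11 neighbouring H2A (blue) and H2B (red) genes with both genes tested, ordered by the H2B change. The H2B gene lies to the right of its H2A neighbour in 10 of the 11, the exception being Hist2h2ac and Hist2h2be, both near 0.

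RefSeq promoter sequences, 250 bases before to 50 bases after each annotated start, were matched for 62 of the 68 genes. They were searched on both strands for letters known from such promoters, among them the octamer ATTTGCAT, which POU-domain factors bind and which is a classical element of H2B promoters. The octamer was present in 7 of 16 H2B and 7 of 18 H2A promoters, in 0 of 6 H1, 0 of 10 H3 and 0 of 12 H4 promoters and in 1.97% of the promoters of 27025 genes. A version with 1 changed letter, ATTTGAAT, which was searched for after the sequences had been read, was in 8 of 16 H2B and 6 of 18 H2A promoters and in 1.47% of all. The promoter windows of head-to-head genes overlap, so the same site can be counted for both types. This was so for the octamer of Hist1h2bk and Hist1h2ah, of Hist1h2bg and Hist1h2ae, and of Hist1h2ba and Hist1h2aa. It was also so for the changed version of Hist1h2bj and Hist1h2ag. The H2A and H2B counts are therefore not separate. The sequences below are the last 100 bases before the start of 4 H2B genes with the octamer, of 2 with the changed version, and of Hist1h2bl, which had neither and the largest rise. Among them is the stretch from 150 to 51 bases before the start of Hist1h2ac, which lies between that gene and Hist1h2bc. Capitals mark the octamer or its changed version, on either strand.
Hist1h2bk (GRCm38.p6 chr13:22035721-22035820, plus strand): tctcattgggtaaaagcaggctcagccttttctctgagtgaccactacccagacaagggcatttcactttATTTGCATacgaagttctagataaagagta
Hist1h2bg (GRCm38.p6 chr13:23571300-23571399, plus strand): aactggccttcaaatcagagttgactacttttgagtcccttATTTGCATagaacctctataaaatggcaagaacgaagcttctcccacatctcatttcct
Hist1h2bm (GRCm38.p6 chr13:21721944-21722043, plus strand): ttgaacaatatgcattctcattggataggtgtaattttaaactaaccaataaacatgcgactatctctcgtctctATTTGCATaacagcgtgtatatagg
Hist2h2bb (GRCm38.p6 chr3:96269600-96269699, plus strand): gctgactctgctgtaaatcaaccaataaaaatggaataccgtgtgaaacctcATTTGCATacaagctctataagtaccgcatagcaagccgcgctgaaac
Hist1h2ac (GRCm38.p6 chr13:23684010-23684109, minus strand): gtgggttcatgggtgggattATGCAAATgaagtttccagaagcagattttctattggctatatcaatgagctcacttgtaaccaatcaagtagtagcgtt
Hist1h2bj (GRCm38.p6 chr13:22043098-22043197, plus strand): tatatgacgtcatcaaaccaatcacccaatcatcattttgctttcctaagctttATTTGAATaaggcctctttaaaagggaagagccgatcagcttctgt
Hist1h2bf (GRCm38.p6 chr13:23574208-23574307, minus strand): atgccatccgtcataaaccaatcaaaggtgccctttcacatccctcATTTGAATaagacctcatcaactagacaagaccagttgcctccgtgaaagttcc
Hist1h2bl (GRCm38.p6 chr13:21716184-21716283, minus strand): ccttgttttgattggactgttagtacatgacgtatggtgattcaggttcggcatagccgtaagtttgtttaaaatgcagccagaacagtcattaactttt

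The 7 H2B genes with the octamer all rose in Egr1 culture, with a median log2 change of 1.36 (1.20 to 1.66), and so did the 9 without it, with a median of 1.21 (0.47 to 1.84). Hist1h2ac, an H2A gene with the octamer, did not pass. Its octamer lies in the stretch shared with Hist1h2bc, which rose but had no promoter sequence and is in neither of these groups. The part of the octamer in the rise was not tested. Of the 9 H2B genes without the octamer, 6 had the changed version. The letters CCAAT were in all 6 H1, 18 H2A, 16 H2B and 10 H3 promoters and in 3 of 12 H4 promoters, beside 41.1% of all genes, and TATAAA was in 8 of 16 H2B and 11 of 18 H2A promoters, beside 15.7%. The Egr1 motif GCGNGGGCG was in 0 of the H1, H2A and H2B promoters, 2 of 10 H3 promoters (Hist2h3c1 and Hist2h3c2) and 1 of 12 H4 promoters (Hist1h4f), beside 6.27% of all genes. These matches are descriptions of letters, not of binding, and no match says only that the letters are not in this window.

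The counts in lists of genes that serve histone production stand beside the 15.2% of all genes tested that rose and the 29% that fell. Of 16 tested genes for histone mRNA processing and transcription, 0 rose and 5 fell in Egr1 culture (median log2 -0.17, beside -0.10 over all genes tested); with median-of-ratios scaling 1 rose and 3 fell. Slbp, the stem loop binding protein, was at 71.6, 74.8 and 80.2 TPM in Control culture and at 57.1, 62.8 and 55.4 TPM in Egr1 culture (log2 -0.37 ± 0.073, limma adjusted p = 0.0039). Lsm11, a subunit of the U7 particle that cuts histone messenger RNA, and Coil, the scaffold of Cajal bodies, fell by 0.45 and 0.42 on the log2 scale. Npat, an activator of histone transcription in S phase, did not pass (log2 -0.24, limma adjusted p = 0.11). Of 20 histone chaperone and assembly genes 0 rose and 8 fell (median log2 -0.10), and with median-of-ratios scaling 1 rose and 7 fell, with a median of 0.01. Those that fell include Hjurp (log2 -0.49) and Asf1b (log2 -0.47), which carry the centromeric H3 variant and new H3 and H4.

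The histone variants outside the clusters were mixed: of 11 tested, H2afv rose (log2 0.22), and H1f0, H2afy2, H2afx and Cenpa fell (log2 -0.58, -0.34, -0.30 and -0.20), while median-of-ratios scaling gave 2 higher and 2 lower. H2afz, the H2A.Z gene, was at 518 ± 19.7 TPM against 555 ± 72.1 TPM (SD, n = 3 each) and did not pass. Of 30 S phase genes 1 rose (E2f1, log2 0.44) and 17 fell, and of 20 G2/M genes 0 rose and 13 fell. With median-of-ratios scaling 5 S phase genes and 6 G2/M genes fell. Mcm2 was at log2 -0.25, Mki67 at log2 -0.42 and Pcna, which did not pass, at log2 -0.03. Among cell type markers, Gfap, Nes and Hes5 rose (log2 1.64, 0.99 and 0.90), as did Snap25 and Syt1 of mature neurons (log2 2.30 and 2.27). The summed neuron list was at 12.4 to 13.8 TPM in Control culture and at 35.9 to 44.2 TPM in Egr1 culture. The endothelial marker Cldn5 and the microglial markers Cx3cr1, Aif1 and C1qa were at 0 in every culture library. Kdr, the 1 endothelial marker tested, fell from 7.69, 5.21 and 7.30 TPM to 0.92, 0.55 and 0.57 TPM (log2 -2.19). The summed microglia list was at 3.46 to 3.72 TPM in Control culture and at 1.85 to 2.50 TPM in Egr1 culture, and its 1 tested marker fell. The part of these shifts in the H2B result was not tested.

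The 8-week comparisons asked which differences were present long after the exposure, and whether running was accompanied by others. The summed histone level was 2233, 2396 and 2623 TPM in Control 8w, 1650, 1708 and 1793 TPM in MDZ 8w and 1172, 1667 and 1086 TPM in RUN MDZ 8w. Control 8w was highest in every library, and RUN MDZ 8w replicate 2 overlapped with MDZ 8w. Hist3h2a, a large part of these sums, was at 778, 741 and 874 TPM in Control 8w and at 323, 292 and 316 TPM in MDZ 8w. By gene, 34 changes were positive and 19 negative in MDZ 8w against Control 8w (median log2 0.67, beside 0.36 over all genes tested). In MDZ 8w against Control 8w, 53 histone genes were tested, 0 rose, 1 fell and 52 did not pass by limma, while 4.68% of all 15264 genes tested rose and 0.452% fell. At an unadjusted p below 0.05 there were 11 histone genes, 6 of them higher, beside 22.8% of all genes tested. Groups did not overlap for 12 higher and 6 lower histone genes, beside 27.8% and 11.3% of all genes tested.

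The gene that fell was Hist3h2a, the H2A gene with the highest level at 8 weeks. It was at 778, 741 and 874 TPM in Control 8w, at 323, 292 and 316 TPM in MDZ 8w and at 246, 286 and 250 TPM in RUN MDZ 8w. Every Control 8w library, replicate 1 included, lay above every exposed library. The log2 change was -1.35 ± 0.15 in MDZ 8w (limma adjusted p = 0.0033) and -1.60 ± 0.15 in RUN MDZ 8w, each against Control 8w (limma adjusted p = 0.0016). MDZ 8w kept the call in 18 of 19 alternative fits, the exception being library quality weights (adjusted p = 0.23). Its neighbours in the Hist3 cluster differed less: Hist3h2ba was at 375, 324 and 317 TPM, then 267, 280 and 369 TPM in MDZ 8w (log2 -0.20 ± 0.22), and the pseudogene Hist3h2bb-ps at 119, 71.6 and 67.6 TPM, then 65.0, 78.7 and 78.6 TPM in MDZ 8w (log2 -0.30 ± 0.33). Neither passed in MDZ 8w.

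The remaining H2A genes, most of them in the Hist1 cluster, showed how far Control 8w replicate 1 stood from replicates 2 and 3. Hist1h2ac was at 29.4 TPM in replicate 1, listed at 0 in replicate 2 and at 0.62 TPM in replicate 3, with 26.7, 37.8 and 23.2 TPM in MDZ 8w. Hist1h2ag was at 34.4, 1.96 and 1.28 TPM in Control 8w and at 44.6, 64.4 and 34.1 TPM in MDZ 8w. In 11 of the 13 tested H2A genes replicate 1 lay above replicates 2 and 3, and in 11 of the 17 tested H2B genes it lay below both, as for Hist1h2bc (117 TPM against 358 and 286 TPM).

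The 12 tested H2A genes other than Hist3h2a had positive changes in MDZ 8w, but 0 passed by limma (median of the type 1.16, beside 0.36 over all genes tested). Quantile normalization left 10 of 13 positive, with a median of 0.34 beside -0.06 over all genes, and turned the H3 median from 1.35 to -0.53. It also moved the H2B genes from 9 positive and 8 negative to 2 and 15, and the H4 genes from 4 and 7 to 1 and 10. Without Control 8w replicate 1, after which the group is a single averaged sample whose spread is taken from the other groups, 12 histone genes passed in place of 1. Of these, 7 were higher (Hist1h1e and the H2A genes Hist1h2ab, Hist1h2ac, Hist1h2ad, Hist1h2ae, Hist1h2ag and Hist1h2an) and 5 lower (Hist3h2a, Hist1h2bc, Hist1h2be, Hist1h2bj and Hist1h4j). These values are those of 1 averaged control sample. Many of the H2A genes are near-identical copies, so their values are not independent of each other.

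The H1 gene Hist1h1e was listed at 0 in all 3 Control 8w libraries and stood at 20.9, 7.18 and 15.4 TPM in MDZ 8w and at 3.72, 2.31 and 25.8 TPM in RUN MDZ 8w. Hist1h1b was also listed at 0 in Control 8w and in all RUN MDZ 8w libraries, and was at 10.3, 1.22 and 13.9 TPM in MDZ 8w. Neither passed in MDZ 8w (limma adjusted p = 0.061 and 0.10). Control 8w libraries held fewer genes above 0 in general, and the H3 type showed it most: 1 or 2 of 12 H3 genes were above 0 in a Control 8w library and 9 or 10 in an MDZ 8w library. No fold is given here for Hist1h1e and Hist1h1b. Where a gene was listed at 0 in a whole group, the size of its log2 change depends on the 1 added to each value. This holds for Hist1h1b and Hist2h2ab below, and such genes also enter the medians of the types.

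Slbp was higher after exposure. It was at 8.60, 21.8 and 16.3 TPM in Control 8w, at 64.2, 96.6 and 85.9 TPM in MDZ 8w and at 33.0, 57.4 and 36.5 TPM in RUN MDZ 8w, with no overlap between the first group and the others. It rose in MDZ 8w (log2 2.56 ± 0.42, limma adjusted p = 0.014) and in RUN MDZ 8w (log2 1.60, limma adjusted p = 0.048), each against Control 8w. The second call was lost with median-of-ratios scaling (limma adjusted p = 0.057) and with quantile normalization (limma adjusted p = 0.18). In MDZ 8w it was the single one of 16 processing genes to pass. Of 20 chaperone genes Ipo4, a histone import factor, rose (log2 1.13), of 30 S phase genes Mcm6 (log2 1.19), and of 20 G2/M genes Aurka and Nusap1 (log2 3.76 and 3.74), with 20 of 20 G2/M changes positive. The counts in these lists stand beside the 4.68% of all genes tested that rose. After quantile normalization 16 of the 20 G2/M changes were positive, and Ipo4, Mcm6, Aurka and Nusap1 did not pass. Several G2/M genes were listed at 0 in part of Control 8w. Aurka was at 0, 0.94 and 3.22 TPM there, and Ccnb2 at 45.7 TPM in replicate 1 and 0 in replicates 2 and 3. Bub1b was at 0, 48.6 and 40.5 TPM, then 29.3, 41.0 and 37.5 TPM in MDZ 8w. The size or sign of such changes can depend on single Control 8w libraries and on the 1 added to each value. None of the 11 histone variants passed by limma, 3 at an unadjusted p below 0.05. Summed pericyte and smooth muscle markers were at 2335 to 3482 TPM in Control 8w and at 612 to 1316 TPM in MDZ 8w, and neuroblast markers at 7767 to 7950 TPM and 4428 to 6501 TPM. Radial glia and stem cell markers were higher in MDZ 8w (summed 2223 to 2495 TPM and 3510 to 5149 TPM, 10 of 10 positive, 3 passed), as were astrocyte markers (942 to 1340 TPM and 1879 to 2153 TPM, 6 of 6 positive, 1 passed). The part of these cells in the histone changes was not tested.

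RUN MDZ 8w and MDZ 8w share the exposure and differ in the running wheel. Here 0 of 53 tested histone genes passed by limma in either direction, beside 0.0524% of all genes tested that rose and 0.105% that fell. At an unadjusted p below 0.05 there were 10 histone genes, all lower in RUN MDZ 8w, beside 6.02% of all genes tested that were higher and 3.96% that were lower. The changes were in one direction for 4 of the 5 types: 4 of 4 H1, 13 of 13 H2A, 8 of 8 H3 and 11 of 11 H4 genes were negative, against 8 of 17 H2B genes. Many genes of a type are near-identical copies measured in the same libraries, so these are not counts of independent observations. After quantile normalization the counts were the same except for H3, with 7 of 8. The median was -0.84 over the 53 genes and 0.05 over all genes tested, and by type -1.24 for H1, -1.59 for H2A, 0.12 for H2B, -0.81 for H3 and -1.34 for H4. Groups did not overlap for 17 lower and 0 higher histone genes, beside 10.5% and 14.4% of all genes tested.

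**Figure D5:**
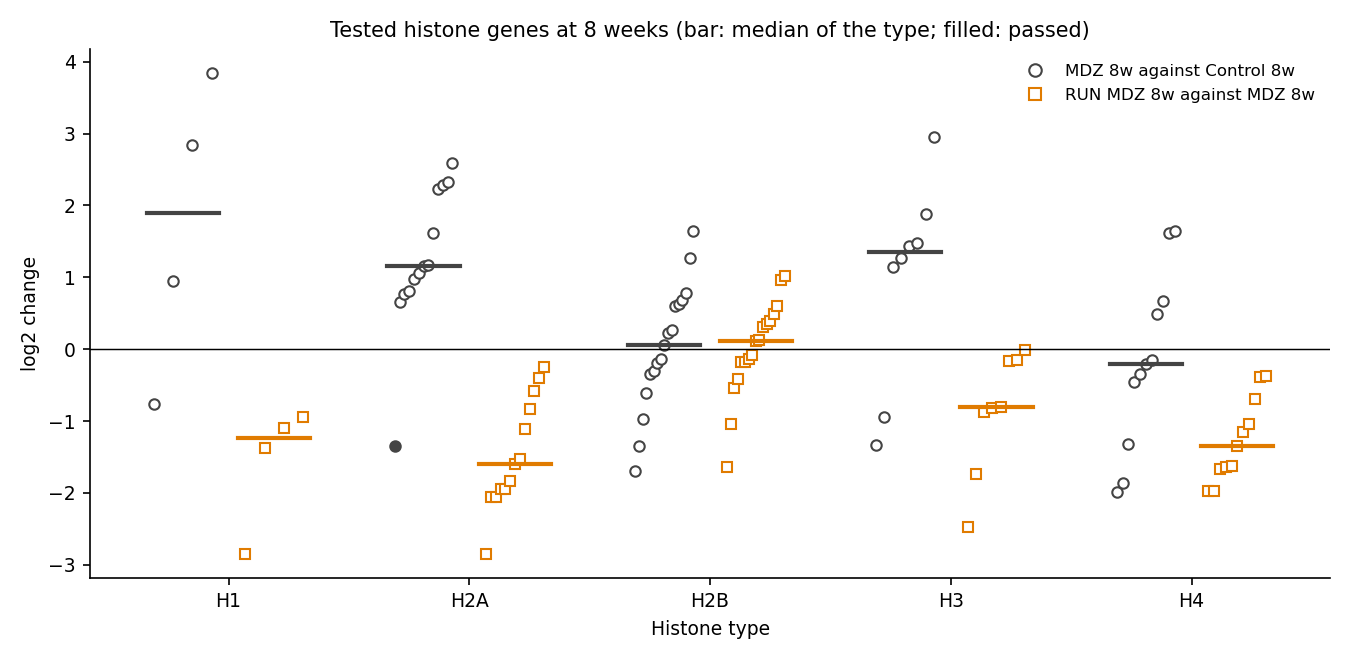
log2 change of each tested histone gene at 8 weeks by type, for MDZ 8w against Control 8w (grey circles) and RUN MDZ 8w against MDZ 8w (orange squares), with a bar at the median of each type and filled symbols for genes that passed. The single filled point is Hist3h2a, and all orange squares of H1, H2A, H3 and H4 lie below 0. The 2 comparisons share the MDZ 8w libraries.

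The summed H2A level was 570, 661 and 508 TPM in MDZ 8w and 298, 396 and 332 TPM in RUN MDZ 8w, without overlap. Hist1h2ag had the largest negative change with Hist1h1b, from 44.6, 64.4 and 34.1 TPM to 5.54, 5.73 and 5.37 TPM (log2 -2.85 ± 0.87, limma adjusted p = 0.30) and the 3 running libraries lay close together. It passed when only these 2 groups were fitted, with library quality weights and without Control 8w replicate 1. The H4 sum was 114, 110 and 135 TPM in MDZ 8w and 56.6 TPM or less in every RUN MDZ 8w library, with Hist1h4j at 10.0, 15.5 and 20.0 TPM and then at 1.86, 6.19 and 2.03 TPM (log2 -1.98 ± 0.66, limma adjusted p = 0.35). The H2B sum overlapped, at 753, 761 and 917 TPM and then 674, 1002 and 664 TPM, and Hist1h2bc was at 200, 197 and 211 TPM and then 202, 182 and 156 TPM (log2 -0.18 ± 0.34).

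The one estimate of spread taken for the 3 groups includes Control 8w, whose samples differed most. With only MDZ 8w and RUN MDZ 8w in the fit, 4 histone genes passed, all H2A and all lower in RUN MDZ 8w (Hist1h2ad, Hist1h2ae, Hist1h2ag and Hist1h2an). With library quality weights 5 passed, all lower (Hist1h2ae, Hist1h2ag, Hist1h2an, Hist1h4j and Hist3h2bb-ps). The running libraries also differed from each other: RUN MDZ 8w replicate 3 had 0 of 12 H3 genes above 0, where replicates 1 and 2 had 9 and 4, and its Hist1h1c level was 14.2 TPM, against 91.8 and 172 TPM.

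Other lists moved with this comparison. Of 30 S phase genes 29 were negative (median -0.65, 0 passed by limma, 8 at an unadjusted p below 0.05), for example Pcna at 285, 439 and 336 TPM and then at 140, 250 and 198 TPM. Of 20 G2/M genes 14 were negative (median -0.38, 0 passed by limma, 0 at an unadjusted p below 0.05). Mki67 of that list did not separate the groups (log2 -0.38). All 11 histone variants outside the clusters were negative (median -0.45), and 0 passed by limma, 2 at an unadjusted p below 0.05. Summed oligodendrocyte markers were at 132 to 745 TPM in MDZ 8w and at 2061 to 3289 TPM in RUN MDZ 8w, endothelial markers at 284 to 378 TPM and 750 to 991 TPM, and astrocyte markers at 1879 to 2153 TPM and 2729 to 3386 TPM, with 6 of 6, 7 of 7 and 5 of 6 members positive. Pericyte and smooth muscle markers summed to 612 to 1316 TPM and 2194 to 3160 TPM. None of these lists' markers was at 0 in every library. The part of these cell types in the histone changes was not tested.

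RUN MDZ 8w against Control 8w shares its libraries with both comparisons above. Here 0 histone genes rose and 6 fell by limma, beside 9.41% and 1.9% of all genes tested, with 9 of 53 histone genes and 27.2% of all genes at an unadjusted p below 0.05. The 6 were Hist3h2a, the H4 genes Hist1h4f, Hist1h4j and Hist1h4d, the H3 gene Hist2h3b and Hist3h2bb-ps. Hist1h4f was at 20.6, 23.2 and 23.7 TPM in Control 8w, at 3.75, 5.41 and 7.29 TPM in MDZ 8w and at 1.62, 1.44 and 3.54 TPM in RUN MDZ 8w, without overlap between the 3 groups (log2 -2.90 ± 0.57, limma adjusted p = 0.019). Hist2h3b was at 36.2, 27.6 and 16.9 TPM, then 12.7, 10.8 and 8.96 TPM, then 8.40 TPM and listed at 0 in replicates 2 and 3. Fitting only the 2 groups, or using library quality weights, left 0 of the 6. Leaving out any 1 MDZ 8w library or RUN MDZ 8w replicate 3 left 2, and leaving out RUN MDZ 8w replicate 1 left 3. Hist3h2a and Hist1h4f passed in all 9 fits that left out a library. Without Control 8w replicate 1, 12 histone genes passed, 4 of the 6 among them. In the same comparison all 6 oligodendrocyte markers rose (summed 197 to 251 TPM in Control 8w and 2061 to 3289 TPM in RUN MDZ 8w) and 6 of 8 neuroblast markers fell (7767 to 7950 TPM and 3739 to 4800 TPM). Among the other lists, 5 of 6 astrocyte markers (942 to 1340 TPM and 2729 to 3386 TPM), 4 of 7 endothelial markers (378 to 542 TPM and 750 to 991 TPM) and 2 of 10 radial glia and stem cell markers (2223 to 2495 TPM and 3287 to 3722 TPM) rose. With quantile normalization 3 oligodendrocyte, 5 astrocyte, 1 endothelial and 1 radial glia marker rose and 1 neuroblast marker fell. The part of these cells in the histone values was not tested.

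The P10 comparison asked what had changed 1 day after the last injection. Histone genes differed little. The summed level was 107, 107 and 118 FPKM in Control P10 and 134, 125 and 121 FPKM in MDZ P10, which do not overlap. Of 21 histone genes tested, 0 passed by limma, beside 0% of all 12914 genes tested that rose and 0.00774% that fell. At an unadjusted p below 0.05 there were 4, all higher in MDZ P10, beside 8.54% of all genes tested that were higher and 3.65% that were lower. Groups did not overlap for 4 higher histone genes and 1 lower, beside 12.2% and 6.61% of all genes tested, and 16 of the 21 changes were positive (median 0.11, beside 0.01 over all genes tested).

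Hist3h2a was at 21.6, 18.8 and 21.3 FPKM in Control P10 and at 26.3, 21.8 and 25.3 FPKM in MDZ P10 (log2 0.24 ± 0.083, limma adjusted p = 0.34). Hist3h2ba was at 21.2, 23.5 and 24.3 FPKM against 28.5, 25.1 and 25.6 FPKM (log2 0.19 ± 0.071, limma adjusted p = 0.36), and Hist1h1c at 6.49, 4.77 and 7.16 FPKM against 7.20, 9.76 and 7.40 FPKM (log2 0.36 ± 0.15, limma adjusted p = 0.39). In all 3 genes the MDZ P10 libraries lay above the Control P10 libraries. Hist1h2ac was the other such gene (log2 0.26), and Hist1h4i had the lowest change (1.38, 1.60 and 1.37 FPKM against 0.99, 1.28 and 1.34 FPKM, log2 -0.16 ± 0.099). By type, 6 of 6 H2A and 8 of 12 H2B genes were positive, with medians of 0.23 and 0.07.

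The 47 histone genes that were not tested at P10 had means below 1 FPKM, and 8 of them were listed at 0 in every P10 library. Of 30 S phase genes 28 were positive at P10 (median 0.17, 0 passed by limma, 14 at an unadjusted p below 0.05; 26 positive with either scaling), among them Pcna at 35.1, 36.2 and 37.1 FPKM against 44.7, 41.3 and 43.3 FPKM. Slbp was at 10.5 ± 0.872 FPKM against 11.4 ± 0.278 FPKM (SD, n = 3 each; log2 0.10, limma adjusted p = 0.56). All 6 pericyte and smooth muscle markers were negative (summed 194 to 233 FPKM in Control P10 and 145 to 171 FPKM in MDZ P10), and the part of such cells in the histone values was not tested.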

How the data were processed

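Poly(A) RNA was sequenced with a directional library kit in 21 of the 31 listed samples, and the 10 chromatin samples were not analysed here. The P10 table was deposited by the authors in FPKM (library totals of 241508 to 252344) and the 8-week and culture tables in TPM (totals close to 1000000), units read from the values. Per the submitters' processing notes mm10, TopHat, Bowtie2 and DESeq2 were named, with no role or version. The sources used here do not name the read counter, its annotation, its use of strand or the sequencing depth.

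Each table was fitted on all its genes with limma 3.58.1 in R 4.3.3 (with data.table, version 1.17.8, for input) on log2(value + 1), with a minimum mean of 1, the empirical Bayes trend, and a Benjamini-Hochberg threshold of 0.05. The fit was tested on simulated data. The 3 groups at 8 weeks shared one fit, in which Control 8w replicates 2 and 3 were averaged. Python 3.11.15, pandas 2.3.3, numpy 2.4.6 and matplotlib 3.10.9 made sums, motif counts and figures.

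Histone genes are named where they passed, had 1 of the 2 highest levels of their type in a table, or had 1 of the 3 largest changes in either direction in a comparison; other genes come from fixed lists. The members and lists were chosen with earlier results of these data known. Genes named as examples beside these were chosen after their values were seen. All 68 genes matched RefSeq records (GRCm38.p6) by older symbols, and 62 had a promoter sequence. Replicate numbers were not taken as pairs, so no block was used in the main fits. Alternatives were other pseudocounts and filters, scalings, library weights, a replicate block, separate fits and leaving out each library.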

Additional observations from a re-analysis of the deposited data

Results flagged for a closer look

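Hist3h2a had changes in opposite directions at the 2 ages. In MDZ P10 against Control P10 the log2 change was 0.24, with 21.6, 18.8 and 21.3 FPKM in Control P10 and 26.3, 21.8 and 25.3 FPKM in MDZ P10. In MDZ 8w against Control 8w it was -1.35, with 778, 741 and 874 TPM in Control 8w and 323, 292 and 316 TPM in MDZ 8w. At each age the groups did not overlap. The difference between the ages was not tested, since the 2 tables are in different units and were normalized separately, and the P10 change did not pass (limma adjusted p = 0.34).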

How the results depend on the processing

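At P10, 0 histone genes passed in every alternative, the replicate block included. In Egr1 culture 25 passed, 23 with the replicate block, 13 of 33 tested with a minimum mean of 5, and 21 to 24 when a library was left out. In MDZ 8w against Control 8w 1 passed, 4 with a pseudocount of 0.1, 3 with only the groups compared, 5 with Control 8w replicates 2 and 3 kept apart, 0 with library quality weights and 1 to 12 when a library was left out. In RUN MDZ 8w against MDZ 8w 0 passed, 5 with quality weights, 4 with only the groups compared and 0 to 1 when a library was left out. In RUN MDZ 8w against Control 8w 6 passed, 0 with quality weights, 0 with only the groups compared and 2 to 12 when a library was left out. The cause of these shifts was not tested.

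At 8 weeks the replicate block could be fitted only with Control 8w replicates 2 and 3 kept apart, an alternative chosen after seeing the data. It gave 2 histone genes in MDZ 8w against Control 8w, 0 in RUN MDZ 8w against MDZ 8w and 8 in RUN MDZ 8w against Control 8w. The same-numbered samples correlated between -0.08 and 0.13 in their deviations and were not taken as pairs. In MDZ 8w against Control 8w each sample correlated best with its own number, a hint from the data.

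Of the histone genes chosen by the naming rule, 5 values turned sign, all of genes that did not pass; Hist2h2be, named outside the rule, also turned sign in culture. Hist1h2bg at P10 turned from -0.04 to 0.024 without Control P10 replicate 3 and to 0.0086 without MDZ P10 replicate 3 (-0.12 to 0.024 over all libraries left out). Hist1h2bn in RUN MDZ 8w against MDZ 8w turned from 0.61 to -0.18 without RUN MDZ 8w replicate 2 (up to 1.15 without replicate 3). In RUN MDZ 8w against Control 8w Hist2h2ab turned from 1.74 to -0.37 with quantile normalization, and Hist1h2bp from 1.75 to -0.64 without Control 8w replicate 1 (up to 2.17 without RUN MDZ 8w replicate 1). Of the other values of single genes 750 kept direction and side of the threshold, 81 no longer passed and 22 newly passed.

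Scaling moved the split over all genes: in culture 1888 higher and 3598 lower became 2776 and 2721 with median-of-ratios scaling and 2452 and 3214 with quantile normalization. With quantile normalization 8 and 16 became 15 and 19 in RUN MDZ 8w against MDZ 8w, and 1437 and 290 became 278 and 128 in RUN MDZ 8w against Control 8w, whose median over all genes moved from 0.51 to -0.09. Depth is not known, so low values carry no counting error here, and genes listed at 0 may be unmeasured.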
